A study of Mus musculus with 27 samples.

Results

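The genes that encode the matrix proteases and their protein inhibitors were followed in epididymal adipose tissue (EAT) from mice on 3 diets. They were taken by symbol from the annotation of the array, namely every Mmp gene (matrix metalloproteinases, MMPs), every Adamts gene, every Adam gene named by a number alone but 1 that the rule leaves out, and Timp1 to Timp4 (tissue inhibitors of metalloproteinases, TIMPs). This gave 59 of the 18193 genes measured, of which 18 were Mmp, 15 Adamts, 22 Adam and 4 Timp genes. RNA came from 27 male C57BL/6J mice, 9 per diet, and each mouse had its own Affymetrix expression array. The mice were bought at 5 weeks of age, kept for 1 week on a standard diet and then fed for 18 weeks the AIN93G control diet, a Western diet with 39.9% of its energy from fat (including 20% butter and 0.15% cholesterol) and 34.0% from sucrose, or that Western diet with 0.05% quercetin, a plant flavonol. They lived 3 to a cage, and the cages are not given, so animals of a diet may share a cage. The question put to the data was how the Western diet moved these genes, and whether quercetin moved them from there.

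MMPs are zinc-dependent enzymes that cut collagens, proteoglycans and other proteins of the extracellular matrix, and the TIMPs block them by binding the active site. The ADAMs are relatives anchored in the cell membrane, several of which release growth factors and cytokines from the cell surface, and the ADAMTS proteins are secreted relatives that cut proteoglycans and process procollagens. Fat tissue that grows has to remodel its matrix, and macrophages, fibroblasts and adipocytes all make enzymes of these families.

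A value below is a log2 signal, that is the log2 of a probe set's brightness after the arrays were brought to a common distribution, and a difference between diets is a log2 fold change, where 1 is a doubling. A gene is said to rise or fall where limma gave an adjusted p under 0.05 over all 18193 genes. Signals of different genes come from different probes and are not compared with each other. The tissue was checked first, because the labels call it epididymal fat while their extraction text speaks of liver. The mean over 8 adipocyte markers lay between 12.6 and 13 on every array, and Adipoq had a mean of 13.5 ± 0.044 on the control diet (SD, n = 9). Markers of other tissues stood more than 2 log2 units above the median of the 27 arrays on some of them. These were 7 liver markers on 8 arrays (highest on Western replicate 4), 10 testis markers on 6 (12.1, control replicate 6), 8 smooth muscle markers on control replicates 2 and 4, 8 mesothelial markers on control replicates 1 and 5, 8 lymph node markers on control replicate 3, 6 epididymis markers on control replicate 4 (mean 4.88, with 4.30 on control replicate 2 and 4.10 on quercetin replicate 3) and, in a list chosen after values were seen, 10 genes of motile cilia on 7 arrays. The log2 ratio of the 3' to the 5' probe sets is a measure of RNA integrity. For actin its mean was 0.79 in Western diet mice, below that of control mice (1.11, exact two-sided permutation p = 0.0036) and of quercetin mice (1.14, exact p = 0.00012). For Gapdh the means were -0.05, 0.14 and 0.19 (exact permutation p = 0.055 and 0.0070). Adjusted over 6 tests, these permutation p-values were 0.011 and 0.00074 for actin and 0.082 and 0.014 for Gapdh. The part of RNA integrity in the results was not tested.

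The Western diet raised 16 of the 59 genes and lowered 3. Over all genes 11.3% rose and 6.44% fell. The median log2 fold change of the 59 genes was 0.24, and that of all genes was -1.84e-05. Of the 16 that rose, 12 had a mean signal above the median of all genes (6.46), and 1 of the 3 that fell did. In 1 gene, Timp1, the arrays of both diets did not overlap with the Western diet higher, and in 0 with it lower; over all genes the shares were 0.951% and 0.346%. The rises were found among the MMPs (7 of 18), the ADAMs (6 of 22), the TIMPs (2 of 4) and the ADAMTS genes (1 of 15), and the falls among the MMPs, the ADAMs and the TIMPs (1 each).

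**Figure D1:**
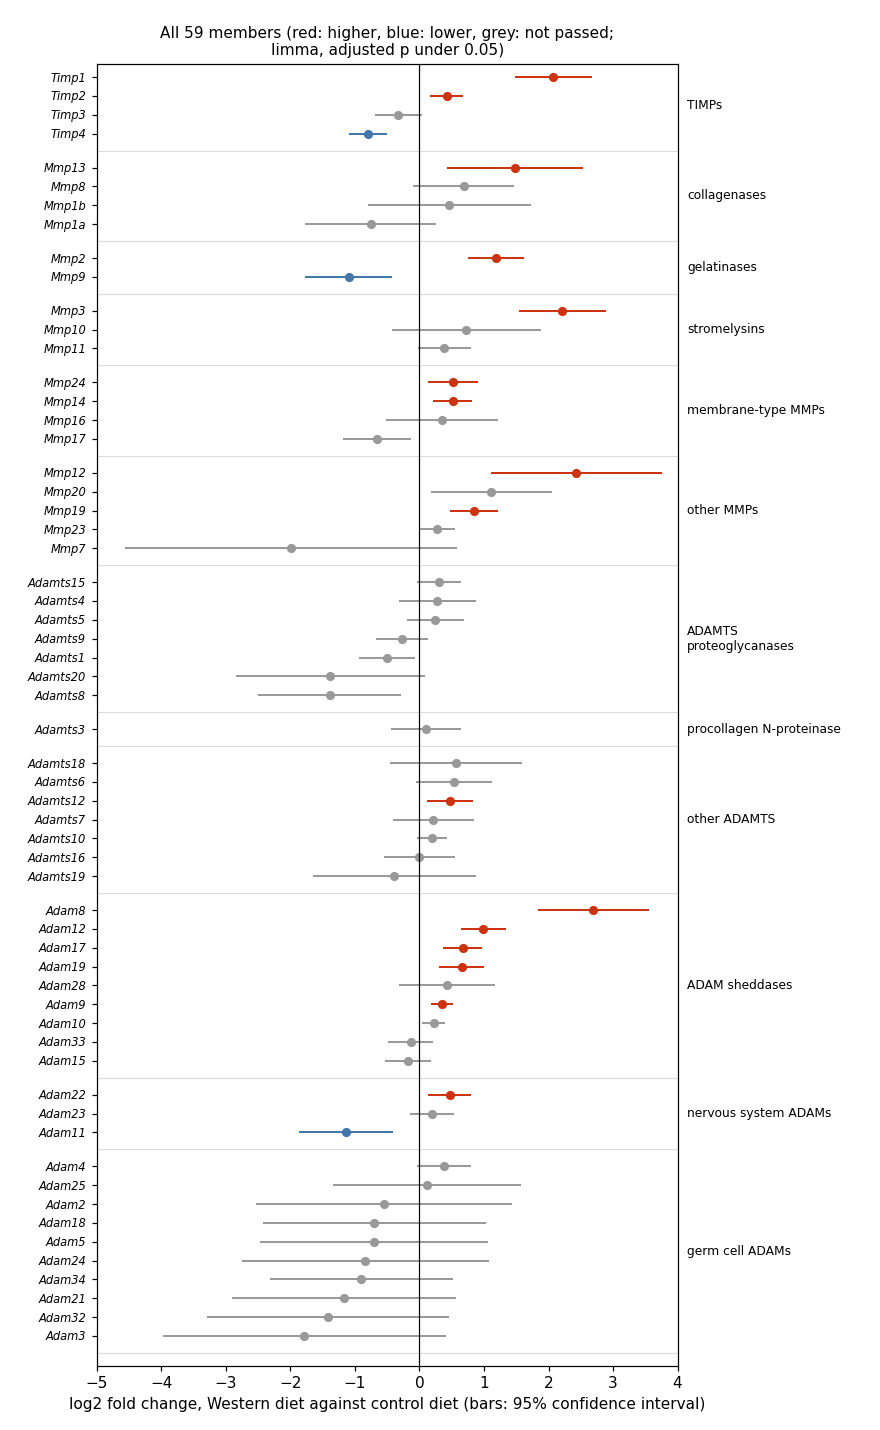
Log2 fold change of each of the 59 genes, Western diet against control diet (n = 9 arrays each), grouped by role, with 95% confidence intervals from limma as bars. Red marks the 16 genes that rose, blue the 3 that fell and grey those that did not pass, and the intervals are widest for Mmp7 and the germ cell ADAMs.

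The inhibitors did not move together. Timp1, a secreted inhibitor of most MMPs that many cells make under inflammatory signals, lay between 5.23 and 6.70 on the control diet (median 5.83), between 7.17 and 8.82 on the Western diet (median 7.97) and between 5.44 and 7.69 with quercetin (median 6.89). Every Western array was above every control array. Timp1 rose by a log2 fold change of 2.08 ± 0.28 (SE, limma adjusted p = 2.3e-05), which is 4.22-fold. Timp4, an inhibitor known for its high expression in fat and heart, went the other way. It lay between 12.03 and 12.70 on the control diet (median 12.51), between 11.06 and 12.06 on the Western diet (median 11.70) and between 11.41 and 12.65 with quercetin (median 11.92). Of the 9 Western arrays, 8 were below every control array, and the change was -0.79 ± 0.13 (adjusted p = 0.00014). Timp2, which blocks MMPs and also takes part in activating pro-MMP2 at the cell surface, rose by 0.43 ± 0.12 (adjusted p = 0.011). Its control arrays lay between 10.62 and 11.49 and its Western arrays between 11.05 and 11.82, and 5 of the 9 Western arrays were above every control array. Timp3, which binds to the matrix and also blocks ADAM17 and several ADAMTS enzymes, had a log2 fold change of -0.33 (95% confidence interval -0.67 to 0.02, adjusted p = 0.19). The control arrays of Timp3 ran from 10.21 to 11.64 and held all the Western arrays within that range. Among the alternatives, Timp3 passed as lower with array weights in limma (-0.44, adjusted p = 0.037). It also passed as lower without the 8 arrays high in testis, smooth muscle or lymph node markers (-0.62, limma adjusted p = 0.018).

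**Figure D2:**
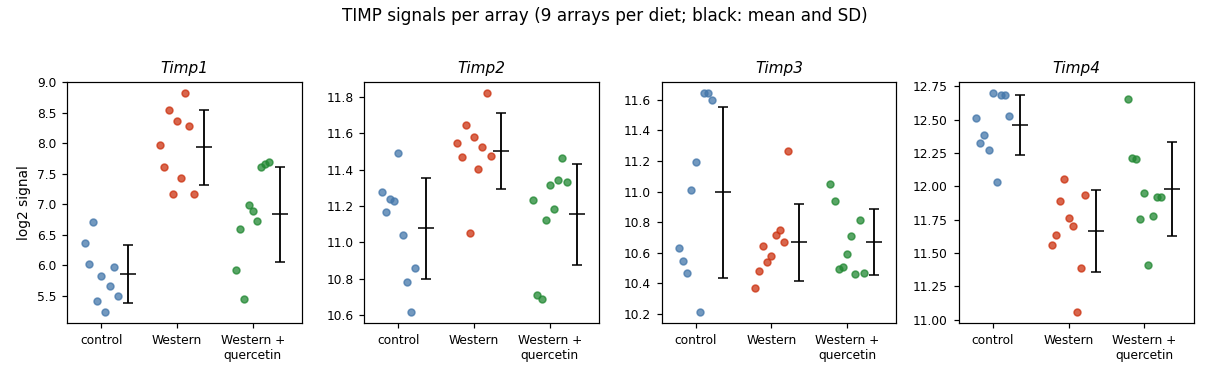
Log2 signal (y axis) of the 4 TIMP genes on each array by diet, with the mean and SD in black (n = 9 per diet). The Western arrays of Timp1 (7.17 to 8.82) lie above all its control arrays (5.23 to 6.70), and 8 of the 9 Western arrays of Timp4 lie below all its control arrays.

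Of the 4 collagenases, which cut the triple helix of fibrillar collagen, 1 rose. Mmp13, the main interstitial collagenase of the mouse, lay between 2.0 and 6.13 on the control diet (median 3.27), between 3.04 and 6.04 on the Western diet (median 5.04) and between 1.83 and 5.80 with quercetin (median 3.97). The ranges overlapped widely, since control replicate 3, at 6.13, was above every Western array. The change was 1.47 ± 0.50 (adjusted p = 0.041), and it no longer passed in 11 of the 27 fits that left out 1 array. Mmp13 passed in 6 of 13 alternatives, and its change was 0.19 with signals under 32 set to 32 and 0.95 without the arrays high in motile cilia genes. Mmp8, the collagenase of neutrophils, had 0.69 (adjusted p = 0.21), and Mmp1a and Mmp1b, the rodent relatives of human interstitial collagenase, stayed between 0 and 3.41 on all arrays, 0 being the floor.

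Both gelatinases changed, in opposite directions. Mmp2, gelatinase A, which fibroblasts and preadipocytes release and which cuts denatured collagen and basement membrane collagen, lay between 7.16 and 8.71 on the control diet (median 7.85), between 8.57 and 9.79 on the Western diet (median 9.25) and between 8.04 and 9.13 with quercetin (median 8.79). All but 2 of the Western arrays were above every control array, and Mmp2 rose by 1.19 ± 0.20 (adjusted p = 0.00016). Mmp9, gelatinase B, an enzyme of neutrophils, macrophages and other cells, lay between 5.36 and 7.44 on the control diet (median 6.27), between 4.08 and 6.02 on the Western diet (median 5.17) and between 4.66 and 7.24 with quercetin (median 5.5). Of its Western arrays, 5 were below every control array, and Mmp9 fell by 1.10 on the log2 scale (SE 0.32, adjusted p = 0.017). Control replicates 2 and 4, with smooth muscle marker means of 11.3 and 11.9 against at most 8.89 elsewhere, gave the highest control values of Mmp9 (7.28 and 7.44), and the same arrays had the highest epididymis marker means (4.30 and 4.88). Mmp9 passed in 9 of 13 alternatives. Without the 8 arrays high in testis, smooth muscle or lymph node markers the change was -0.93 and did not pass (adjusted p = 0.12, and between 0.0061 and 0.12 over the alternatives fitted with limma). The other probe set of Mmp9 moved the same way (-1.37, unadjusted p = 0.019).

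Among the stromelysins, which cut proteoglycans and fibronectin and activate other MMPs, Mmp3 rose. Mmp3, stromelysin 1, lay between 3.36 and 5.69 on the control diet (median 4.67), between 5.62 and 8.03 on the Western diet (median 6.76) and between 5.14 and 6.96 with quercetin (median 6.12). The lowest Western array, at 5.62, was the only one not above all control arrays, and the change was 2.21 ± 0.32 (adjusted p = 3.7e-05), or 4.64-fold. Mmp10 and Mmp11 had 0.73 and 0.39 and did not pass (adjusted p = 0.40 and 0.16).

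Mmp12, macrophage elastase, which cuts elastin and is made chiefly by macrophages, lay between 6.43 and 9.99 on the control diet (median 8.47), between 9.26 and 11.84 on the Western diet (median 10.85) and between 4.34 and 10.97 with quercetin (median 9.32). It rose by 2.43 ± 0.64 (adjusted p = 0.0079), or 5.39-fold, and 6 of the 9 Western arrays were above every control array. Without the arrays high in motile cilia genes, where 4 control arrays remained, Mmp12 had 2.41 and did not pass (adjusted p = 0.093, and between 0.0011 and 0.093 over the alternatives fitted with limma). Mmp19, an MMP with a broad range of basement membrane substrates, rose by 0.85 ± 0.17 (adjusted p = 0.00093), with its 9 Western arrays close together between 6.95 and 7.47 and 8 of them above every control array. Of the MMPs that sit in the cell membrane, Mmp14, the surface collagenase that activates pro-MMP2, rose by 0.51 ± 0.14 (adjusted p = 0.011), from a control range of 8.44 to 9.29 to a Western range of 8.94 to 9.89, and passed in 12 of 14 alternatives. Mmp24, a membrane-type MMP known from neurons, rose by 0.51 ± 0.18 (adjusted p = 0.047), but passed in 2 of 13 alternatives and in 7 of 27 fits without 1 array. Mmp16 and Mmp17 did not pass in the main fit. Mmp17 had -0.65 (adjusted p = 0.068), and passed as lower without control replicate 1 or 6 or Western replicate 6 (limma adjusted p between 0.040 and 0.045).

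**Figure D3:**
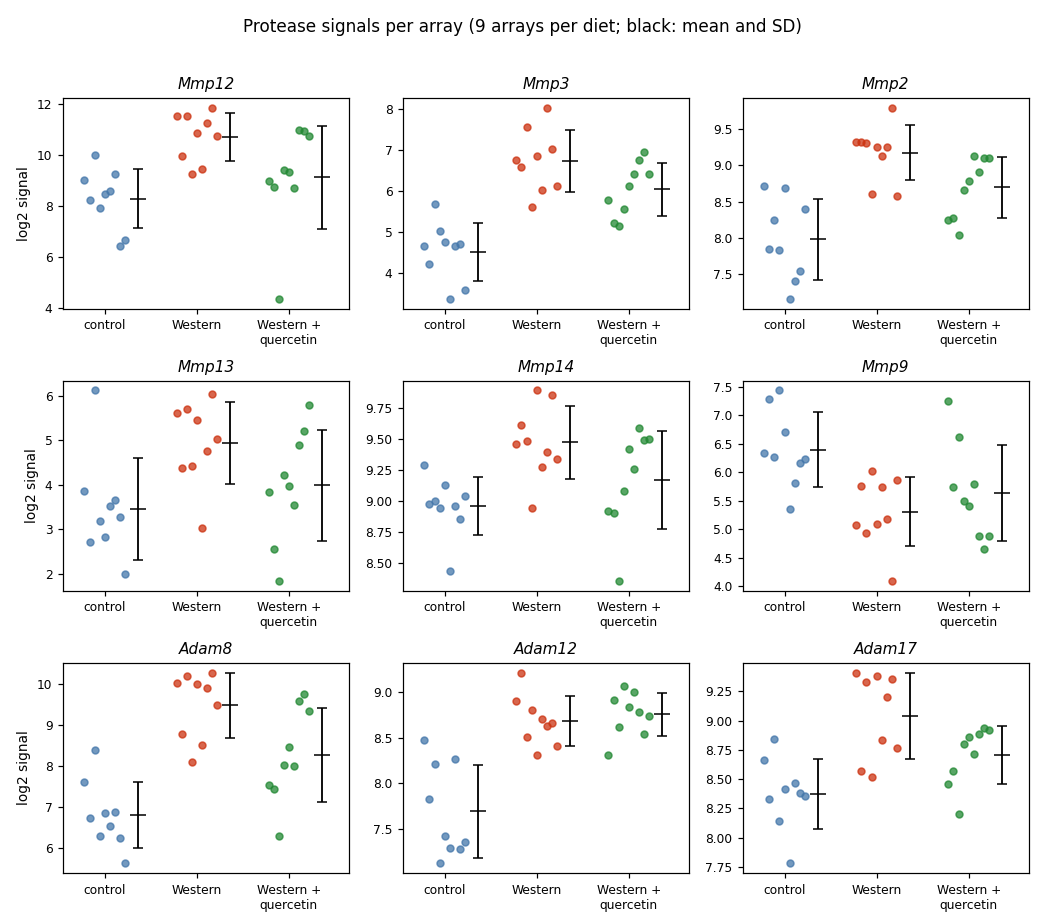
Log2 signal (y axis) of 9 proteases on each array by diet, with the mean and SD in black (n = 9 per diet). The Western mean lies above the control mean for every gene but Mmp9, and the 3 highest quercetin arrays of Mmp12 and Adam8 (10.75 to 10.97 and 9.35 to 9.77) stand above the other 6 of their diet, of which 4 and 5 lie below every Western array.

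Mmp13, Mmp12 and Mmp3 are neighbours. In RefSeq's annotation of GRCm38.p6, 10 Mmp genes lie side by side on chromosome 9 with no other protein-coding gene among them, in the order Mmp13, Mmp12, Mmp1b, Mmp3, Mmp1a, Mmp10, Mmp8, Mmp27, Mmp20 and Mmp7. Of the 9 that were measured, 3 rose on the Western diet while 6 did not pass, and of the 9 only Mmp12 had a mean signal above the median of all genes. Many MMP promoters are known for an AP-1 site close to the start of transcription, so the letters TGACTCA were searched on both strands (TGAGTCA on the other) in the RefSeq promoter windows, 250 bases before to 50 after each start. Windows of these genes on 1 chromosome had been left out before counting, while the count over all windows kept that chromosome. Windows of 33 of the 59 genes were used. The motif stood in 8 of their 38 windows (21.1%) and in 5.2% of all 32851 windows. Among the cluster it stood in a window of 7 of the 9 measured genes, namely of Mmp13, Mmp12 and Mmp3, which rose, and of Mmp1a, Mmp1b, Mmp10 and Mmp7, which did not pass. The eighth window was 1 of the 3 of Adam19. The windows of the 3 genes that rose, and of their neighbour Mmp10 for comparison, are shown 5′ to 3′ with the motif in capitals, which begins at base 216, 207, 205 and 188 of the window.
Mmp13 (chr9:7272264-7272563, plus strand): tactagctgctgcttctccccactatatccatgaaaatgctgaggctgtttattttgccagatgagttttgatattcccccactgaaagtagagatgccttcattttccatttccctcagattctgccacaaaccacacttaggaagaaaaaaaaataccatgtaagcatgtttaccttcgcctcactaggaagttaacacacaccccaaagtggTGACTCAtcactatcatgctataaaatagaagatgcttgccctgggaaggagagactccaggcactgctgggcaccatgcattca
Mmp12 (chr9:7347124-7347423, plus strand): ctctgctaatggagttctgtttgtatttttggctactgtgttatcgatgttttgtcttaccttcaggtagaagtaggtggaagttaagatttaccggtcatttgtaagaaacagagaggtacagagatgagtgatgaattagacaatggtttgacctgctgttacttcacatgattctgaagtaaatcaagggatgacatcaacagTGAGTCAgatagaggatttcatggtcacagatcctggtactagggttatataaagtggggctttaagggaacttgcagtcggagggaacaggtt
Mmp3 (chr9:7445572-7445871, plus strand): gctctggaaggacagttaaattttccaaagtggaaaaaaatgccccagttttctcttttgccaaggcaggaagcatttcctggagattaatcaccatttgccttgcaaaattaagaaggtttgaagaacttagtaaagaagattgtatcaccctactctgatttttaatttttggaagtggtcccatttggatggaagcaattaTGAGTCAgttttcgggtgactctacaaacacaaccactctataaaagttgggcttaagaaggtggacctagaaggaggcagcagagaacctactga
Mmp10 (chr9:7502092-7502391, plus strand): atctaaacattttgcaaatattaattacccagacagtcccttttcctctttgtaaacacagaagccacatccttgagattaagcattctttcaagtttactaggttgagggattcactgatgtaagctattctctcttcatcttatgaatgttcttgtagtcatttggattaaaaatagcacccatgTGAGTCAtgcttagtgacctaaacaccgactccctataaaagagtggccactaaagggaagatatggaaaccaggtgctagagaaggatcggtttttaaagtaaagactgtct
A second window of Mmp12, from another start, held no match, nor did those of Timp1 and Adam8. A match of letters is a description of the sequence, and binding was not measured here.

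Of the 9 ADAMs grouped here as sheddases, 5 rose. Adam8, a membrane protease of leukocytes, lay between 5.61 and 8.4 on the control diet (median 6.72), between 8.11 and 10.28 on the Western diet (median 9.91) and between 6.29 and 9.77 with quercetin (median 8.02). It had the largest rise of the 59 genes, 2.70 ± 0.41 (adjusted p = 5.5e-05) or 6.48-fold, and 8 of the 9 Western arrays were above every control array. Adam12, a protease of mesenchymal cells known to rise in tissue repair and to cut insulin-like growth factor binding proteins, lay between 7.12 and 8.47 on the control diet (median 7.42), between 8.31 and 9.22 on the Western diet (median 8.66) and between 8.31 and 9.07 with quercetin (median 8.78). Its change was 0.99 ± 0.16 (adjusted p = 0.00011), and 7 Western arrays were above every control array. Adam17, the enzyme that releases tumor necrosis factor alpha from the cell surface, rose by 0.67 ± 0.14 (adjusted p = 0.0012), from 7.78 to 8.84 on the control diet to 8.52 to 9.41 on the Western diet, and 5 Western arrays were above every control array. Adam19, a sheddase of neuregulins, rose by 0.65 ± 0.16 (adjusted p = 0.0048) and passed in 13 of 14 alternatives. Adam9, widely expressed on cell surfaces, rose by 0.35 ± 0.08 (adjusted p = 0.0018), with all Western arrays but replicate 9 (10.75) above the highest control array (10.97). Adam10, the main sheddase of Notch receptors, had 0.22 (adjusted p = 0.060), with control arrays between 10.01 and 10.60 and Western arrays between 10.29 and 10.91, and passed in 4 of 14 alternatives. Adam15, Adam28 and Adam33 did not pass in the main fit. Adam15, with -0.17 there (adjusted p = 0.51), passed as lower with array weights in limma (-0.37, adjusted p = 0.033). It also passed as lower without the 8 arrays high in testis, smooth muscle or lymph node markers (-0.42, limma adjusted p = 0.021).

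The 3 ADAMs that lack protease activity and are best known from the nervous system differed among themselves. Adam11 lay between 4.54 and 6.20 on the control diet and between 1.79 and 5.41 on the Western diet and fell by 1.13 on the log2 scale (SE 0.34, adjusted p = 0.021), with 3 Western arrays below every control array. It passed in 9 of 13 alternatives, and the change of Adam11 was -0.48 with signals under 32 set to 32 and -0.87 without the arrays high in liver markers. Adam22, a receptor for the secreted protein LGI1, rose by 0.47 ± 0.15 (adjusted p = 0.033), but passed in 6 of 13 alternatives. Adam23 had 0.20 (adjusted p = 0.42).

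The ADAMTS genes were the family with the fewest changes. None of the 7 that cut large proteoglycans such as versican and aggrecan passed limma's threshold in the main fit, 2 of them had an unadjusted p under 0.05, and 0 passed the methods' test described below. Over all genes 17.6% were higher and 13.1% lower at that unadjusted p, and 7.40% and 3.57% by the methods' test. With array weights in limma, Adamts1 (-0.65, adjusted p = 0.0086), Adamts8 (-1.43, adjusted p = 0.049) and Adamts9 (-0.49, adjusted p = 0.021) passed as lower. Adamts9 also passed without the 8 arrays high in testis, smooth muscle or lymph node markers (-0.59, limma adjusted p = 0.018). Adamts1 passed without control replicate 4, 5 or 6, and Adamts8 without control replicate 6 or 7 or Western replicate 2. Adamts5, a major aggrecanase, ran from 10.34 to 12.22 on the control diet and from 11.29 to 11.70 on the Western diet, so that the control arrays spread far wider than the Western ones and the change was 0.24 (95% confidence interval -0.18 to 0.67, adjusted p = 0.46). Adamts1, which cuts versican, had -0.50 (95% confidence interval -0.92 to -0.09, adjusted p = 0.082), with control arrays between 8.4 and 9.96 and Western arrays between 8.27 and 9.27. Adamts4, an aggrecanase that inflammatory cytokines induce, had 0.27 (adjusted p = 0.55). Adamts3, which processes procollagens, had 0.11 (adjusted p = 0.83), and Adamts2 was not among the measured genes. Adamts12, which cuts cartilage oligomeric matrix protein, was the only ADAMTS gene that passed in the main fit, with 0.47 ± 0.16 (adjusted p = 0.045). The ranges of Adamts12 overlapped, at 7.62 to 9.38 on the control diet and 8.53 to 9.11 on the Western diet, no Western array was above every control array, and it passed in 5 of 14 alternatives and 11 of 27 fits without 1 array.

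Some of the 59 genes varied more between arrays than between diets. Of the 10 ADAMs known from male germ cells, 0 passed on the Western diet in limma, 0 had an unadjusted p under 0.05 and 0 passed the methods' test described below, and 9 had their highest signal on control replicate 6. Adam5 stood at 11.74 there and at 8.26 or less on the other 26 arrays, where its median was 3.80. Adam2 and Adam3, proteins of the sperm surface, stood at 11.35 and 11.40 there, against medians of 3.69 and 2.01. The same array had a mean of 12.1 over 10 testis markers, and the next arrays in that mean, quercetin replicate 5 (8.27) and Western replicate 7 (8.01), were the next in Adam5 as well (8.26 and 6.94). Adam4 did not share this pattern, with 4.46 on control replicate 6 and a median of 5.53 elsewhere. Mmp7, matrilysin, an enzyme of epithelia, was either high or near the floor. Mmp7 was between 6.70 and 8.91 on control replicates 1, 2, 5, 8 and 9, Western replicates 2 and 5 and quercetin replicate 6, and at 4.01 or less on the other arrays. Its change on the Western diet was -1.99 (95% confidence interval -4.54 to 0.57, adjusted p = 0.29). Adamts8 was highest on control replicates 4 and 2 (6.39 and 5.62), those high in smooth muscle markers, and had -1.39 on the Western diet (adjusted p = 0.068).

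**Figure D4:**
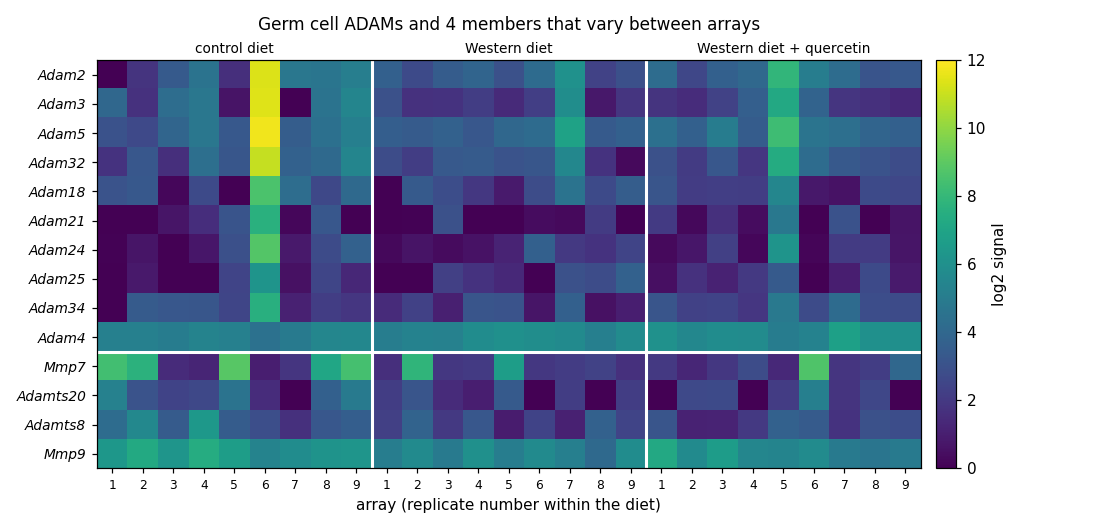
Log2 signal (colour, from 0 to 12) of the 10 germ cell ADAMs (above the white line) and of Mmp7, Adamts20, Adamts8 and Mmp9 (below it) on each of the 27 arrays (x axis, replicate number within the diet). Control replicate 6 is the brightest column for 9 of the 10 germ cell ADAMs, reaching 11.74 for Adam5, and Mmp7 is at 6.70 or more on 8 arrays.

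For quercetin added to the Western diet, 0 of the 59 genes passed the test in either direction. Over all genes 0.253% were higher and 0.0770% lower than on the Western diet. At an unadjusted p under 0.05, 2 of the 59 were higher and 10 lower, and the methods' test (an analysis of variance over the 3 diets that allows unequal variances, followed by Tukey's test) called 0 higher and 5 lower. The 5 were Adam8, Adam9, Mmp19, Timp1 and Timp2, of which Timp2 had a difference of -0.35 (limma adjusted p = 0.15). These values rest on 1 probe set per gene. The other probe sets of Timp2 were lower as well (-1.42 to -0.41, limma unadjusted p between 0.00022 and 0.030). So were the other probe sets of Adam17 (-0.51 and -0.37) and of Mmp14 (-0.60 and -0.61). For Adam22 the 2 probe sets had opposite signs (-0.30 and 0.30). Over all genes 7.31% were higher and 6.41% lower at an unadjusted p under 0.05, and 2.60% and 2.91% by the methods' test. In the methods' test the analysis of variance was adjusted over all genes, and Tukey's p was not. A gene that differs strongly between the control and the Western diet can pass the adjusted step whatever quercetin does. All 5 had passed on the Western diet, unlike most genes, so their count and the share over all genes are not a like comparison. The median difference was -0.09, against 0.02 over all genes. In 18 of the 19 genes that had passed on the Western diet, the quercetin mean lay between the means of the control and the Western diet, as it did in 2800 (87.0%) of the 3219 genes that passed over the whole array. The choice of genes by their Western arrays favours such an order, so the count is a description. Timp1 came closest to the threshold, with -1.10 ± 0.28 (95% confidence interval -1.68 to -0.51, adjusted p = 0.081). For Timp1, 6 quercetin arrays were below every Western array and replicates 7, 8 and 9 (7.61, 7.66 and 7.69) were not. Mmp12 and Adam8 showed a similar spread: replicates 7, 8 and 9 were at 10.97, 10.94 and 10.75 for Mmp12 and at 9.60, 9.77 and 9.35 for Adam8, and the other 6 were at 9.39 or less and at 8.46 or less. The differences were -1.59 (95% confidence interval -2.90 to -0.28, adjusted p = 0.24) and -1.21 (-2.06 to -0.36, adjusted p = 0.16). Quercetin replicate 3 was the lowest of its diet for Mmp12 (4.34), Mmp3 (5.14), Mmp13 (1.83), Adam8 (6.29) and Timp1 (5.44). Adam12 was the exception among the 19 genes, with a difference of 0.07 (95% confidence interval -0.26 to 0.41, adjusted p = 0.91), which was -0.03 when the arrays were only shifted to the same median.

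Against the control diet, 6 of the 59 genes were higher and 1 lower with quercetin, and over all genes 5.00% were higher and 1.65% lower. The higher ones were Mmp3 (1.52 ± 0.32, adjusted p = 0.0051), Adam8 (1.49 ± 0.41, adjusted p = 0.029), Adam12 (1.06 ± 0.16, adjusted p = 0.00024), Timp1 (0.98 ± 0.28, adjusted p = 0.036), Mmp2 (0.71 ± 0.20, adjusted p = 0.033) and Adam4 (0.65 ± 0.20, adjusted p = 0.043). Timp4 was lower (-0.48 ± 0.13, adjusted p = 0.030). Adam12 passed in all 14 alternatives and Mmp3 in 12 of 13. The other calls were less stable, since Timp4 passed in 9 of 14, Adam8 and Mmp2 in 8 of 14 each, Timp1 in 6 of 14 and Adam4 in 4 of 13. For Mmp12, the value was 0.84 (95% confidence interval -0.47 to 2.16, adjusted p = 0.48). This comparison shares its control arrays with that of the Western diet and the control diet, so the values stand side by side and are not 2 independent results.

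**Figure D5:**
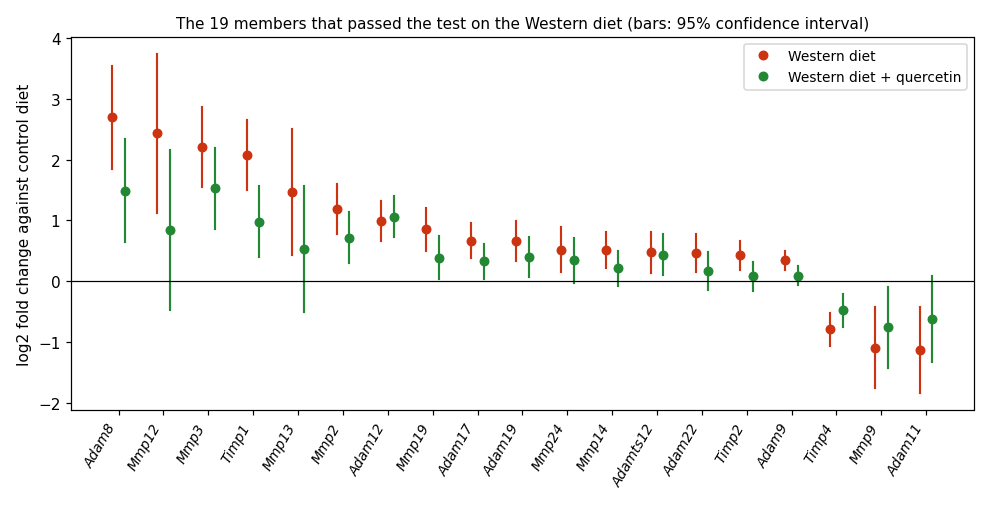
Log2 fold change against the control diet (y axis) of the 19 genes that passed on the Western diet, for the Western diet (red) and the Western diet with quercetin (green), with 95% confidence intervals from limma as bars (n = 9 arrays per diet). The green point lies nearer to 0 than the red one for every gene but Adam12.

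Markers of macrophages rose on the Western diet as well. Of 12 macrophage markers 10 rose on the Western diet, and the mean over the list ran from 8.26 to 9.28 on the control diet, from 9.06 to 10.16 on the Western diet and from 8.67 to 9.70 with quercetin. The defining marker Adgre1 rose by 1.86 (adjusted p = 6.6e-06). Of 9 markers of lipid-associated macrophages 8 rose, of 6 of fibroblasts and preadipocytes 3 rose, and of 8 of adipocytes 1 rose. Of 7 neutrophil markers 2 rose. Of 8 smooth muscle markers 2 fell, and 1 fell of 8 mesothelial and of 7 endothelial ones. Over all genes 11.3% rose and 6.44% fell. With quercetin against the Western diet 0 of the 12 macrophage markers passed in limma, and 10 were lower at an unadjusted p under 0.05. In whole tissue, fewer cells of a type and less RNA per cell cannot be told apart, and the part of cell numbers in the changes was not tested. Within each diet the 19 genes were set against the mean of the macrophage list over its 9 mice, 57 relations in all, with exact two-sided permutation tests and Benjamini-Hochberg adjustment over the 57. Both Pearson's r and Spearman's rho passed for 5 genes in control mice, 6 in Western diet mice and 10 in quercetin mice. With quercetin the macrophage list stood at 9.61, 9.70 and 9.61 on replicates 7, 8 and 9, and at 9.16 or less on the others. The tests treat the 9 mice of a diet as exchangeable, and whether these 3 shared a cage is not given. The values of r without 2 mice, given below, do not leave out all 3. On the Western diet r was positive for 14 of the 19 genes. The share of all genes that would pass was not computed, so these counts do not set the 19 genes apart from others.

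Adam8 followed the macrophage markers in all 3 diets, with r of 0.93, 0.98 and 0.97 on the control diet, the Western diet and with quercetin (exact permutation adjusted p = 0.0012, 0.0012 and 0.00031) and rho of 0.92, 0.87 and 0.98 (exact adjusted p = 0.0083, 0.017 and 0.0014). Without the 2 mice farthest from the median of the markers, r was 0.70, 0.92 and 0.95. For Mmp12, r was 0.76, 0.97 and 0.81 (exact permutation adjusted p = 0.045, 0.0012 and 0.0012), rho was 0.83, 0.90 and 0.88 (exact adjusted p = 0.025, 0.011 and 0.015), and r without the 2 mice was 0.54, 0.90 and 0.76. Mmp9 ran against the markers on the Western diet (r = -0.80, exact permutation adjusted p = 0.026, rho = -0.80, exact adjusted p = 0.038) and with quercetin (r = -0.82, exact permutation adjusted p = 0.016, rho = -0.92, exact adjusted p = 0.0083), with r of -0.74 and -0.71 without the 2 mice, and had r = -0.01 and rho = 0 on the control diet (exact permutation adjusted p = 0.998 and 1). Adam12 did not follow them on the Western diet (r = -0.36, exact permutation adjusted p = 0.47, rho = -0.40, exact adjusted p = 0.38) or with quercetin (r = -0.10, exact permutation adjusted p = 0.85, rho = -0.12, exact adjusted p = 0.87). On the control diet Adam12 had r = 0.69 and rho = 0.87 (exact permutation adjusted p = 0.063 and 0.017), and r = 0.39 without the 2 mice.

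Of the systems that act on these proteases or are cut by them, the matrix itself changed in the most genes. Of 22 substrates, 13 rose on the Western diet, where 11.3% of all genes rose. The methods' test called 9 of the 22 higher, against 7.40% of all genes. The 13 included Lum, a small proteoglycan of collagen fibrils (1.41, adjusted p = 0.00011), Col1a1, a chain of collagen I (1.13, adjusted p = 0.0014), Fn1, fibronectin (1.08, adjusted p = 6.0e-05) and Vcan, the proteoglycan versican (0.88, adjusted p = 0.00024). With quercetin 0 of the 22 passed against the Western diet in limma, 8 were lower at an unadjusted p under 0.05 and the methods' test called 3 lower, against 6.41% and 2.91% of all genes, and Fn1 had -0.62 (adjusted p = 0.085). The limit of the methods' test given above, that Tukey's p was not adjusted over genes, holds here too. Of 9 measured genes of the plasminogen system, whose protease plasmin activates MMPs, 4 rose: Plaur, the receptor of urokinase (0.88, adjusted p = 0.00090), Plgrkt, a plasminogen receptor (0.62, adjusted p = 0.0012), Anxa2 (0.40, adjusted p = 0.0059), which binds plasminogen activator, and Plat, tissue plasminogen activator (0.36, adjusted p = 0.029). The methods' test called 2 of the 9 higher.

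Of 12 other inhibitors and activators of metalloproteases only Tfpi2, an inhibitor of plasmin and other serine proteases, rose (1.88, adjusted p = 6.9e-05). Of 9 partners of ADAM10 and ADAM17, 3 rose: Tspan15 (0.46, adjusted p = 0.011) and Tspan17 (0.41, adjusted p = 0.036), tetraspanins that steer ADAM10, and Frmd8 (0.37, adjusted p = 0.020), which holds the complex that carries ADAM17. Bmp1, the procollagen C-proteinase, was the 1 of 6 astacin proteases that rose (0.50, adjusted p = 0.0056). Of 7 ADAMTS-like proteins, which lack a protease domain, Adamtsl2 (0.83, adjusted p = 0.043) and Adamtsl3 (0.76, adjusted p = 0.0058) rose and Thsd4 fell (-2.0, adjusted p = 0.0031). On the Western diet the methods' test called 0 of the 9 partners higher, and 0 of the 7 ADAMTS-like genes higher and 1 lower. It called 1 of the 12 other inhibitors and activators and 1 of the 6 astacin proteases higher. Over all genes 11.3% rose and 6.44% fell, and 7.40% were higher and 3.57% lower by the methods' test. Of these 5 lists 0 genes passed with quercetin against the Western diet in limma, while at an unadjusted p under 0.05 there were 1 higher, among the other inhibitors and activators, and 1 lower, among the astacin proteases, where the methods' test also called 1 lower.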

How the data were processed

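EAT RNA of 27 mice, 9 per diet, was hybridised to 1 Affymetrix array per mouse. The authors made linear signal intensities with Microarray Suite and GeneSpring, and the deposited intensities were not scaled between arrays (medians 25.2 to 54.4). Control probe sets were dropped, and the signals were quantile normalized, set to at least 1 and converted to log2. Of 45037 probe sets, 932 annotated to several genes and 9160 without a gene name were left out, and each gene was represented by the probe set whose mean over the 27 arrays was highest. The choice of probe set was checked in the 29 members with several. On the Western diet 6 of them had probe sets of different sign, and so did 0 of the 13 that had passed. Mmp23 did not pass (0.27, limma adjusted p = 0.14), but its other probe set had 0.62 (limma unadjusted p = 1.6e-05). With all its probe sets averaged Mmp23 passed (0.45, limma adjusted p = 0.0079).

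Diets were compared with limma 3.58.1 in R 4.3.3, with 1 mean per diet, a variance trend and Benjamini-Hochberg adjustment over 18193 genes at an adjusted p under 0.05. Groups came from the sample titles. Python 3.11.15 with matplotlib 3.10.9 drew the figures. The named genes were the TIMPs, every member past the threshold, a set of well-known proteases whatever their p, and the germ cell ADAM with the highest array. Members and gene lists were chosen with earlier results of these data known. The code was tested on simulated data. Alternatives were a signal floor of 32, a pseudocount of 16, arrays left unnormalized or shifted to the same median, a filter keeping genes whose mean exceeded the median gene, all probe sets of a gene averaged, limma without a trend, with array weights, with a replicate block or on 2 diets, the methods' test, and leaving out arrays singly or by markers of other tissues. The sets apart in motile cilia genes or liver markers were chosen after seeing the data. The number of arrays limits the precision, and p-values measure the spread between mice, whose cages are not given.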

Additional observations from a re-analysis of the deposited data

Results flagged for a closer look

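In 26 named genes and 3 diets, 78 groups of 9 arrays were searched for an array far from the others by Dixon's test, and 9 stood apart. Chance alone gives about 1 in 20 groups. Adam5 was named because of its high array, so its 3 cannot be read against chance, and without it 6 of 75 groups stood apart. Adam5 did so in all 3 diets, with 11.74 on control replicate 6 (nearest other array 5.17), 6.94 on Western replicate 7 (4.21) and 8.26 on quercetin replicate 5 (5.02), and these were the 3 arrays with the highest means over the testis markers (12.1, 8.01 and 8.27).

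Quercetin replicate 3 lay below the other arrays of its diet for Mmp12 (4.34, nearest 8.69) and Adamts5 (10.32, nearest 11.20). Control replicate 3 lay above the others for Mmp13 (6.13, nearest 3.86), and control replicate 6 below them for Mmp14 (8.44, nearest 8.86). Western replicate 9 lay below the others for Adam9 (10.75, nearest 10.98) and above them for Timp3 (11.27, nearest 10.75).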

How the results depend on the processing

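On the Western diet, Timp1, Timp2, Timp4, Mmp2, Mmp3, Mmp19, Adam8, Adam9, Adam12 and Adam17 passed under every alternative that gave them a value. With each array left out in turn, 13 to 16 members rose and 3 to 6 fell on the Western diet (6 without control replicate 6), quercetin mice had 0 to 0 higher and 0 to 1 lower than Western diet mice (1 without control replicate 6 or quercetin replicate 8, Timp1 each time), and 2 to 7 were higher and 0 to 2 lower with quercetin than on the control diet. The medians were 0.20 to 0.31, -0.11 to -0.06 and 0.07 to 0.13.

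For quercetin against the control diet, no normalization, a median shift, and a fit of 2 diets each left 2 higher and 0 lower. For quercetin against the Western diet, a fit of 2 diets called 1 higher (Mmp1a) and 3 lower (Timp1, Mmp19 and Adam9), array weights 1 and 6, the methods' test 5 lower, and genes above the median mean 1 lower (Timp1). Members lower on the Western diet numbered 8 with array weights, and 1 with the methods' test or with genes above the median mean, where fewer genes were tested. Array weights gave 2 lower for quercetin against the control diet. Without the 8 arrays high in testis, smooth muscle or lymph node markers, 10 rose and 5 fell on the Western diet, while quercetin mice had 2 higher and 2 lower than control mice. Without the 7 arrays high in motile cilia genes 1 fell on the Western diet, and 3 and 0 differed with quercetin from the control diet, and without the 8 high in liver markers the counts were 1, and 2 and 0. Fewer arrays were fitted in these.

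The replicate numbers did not pair the samples (mean correlation of same-numbered arrays -0.0044, over 0.1 in 4 of 27 pairs, closest array of another diet sharing the number for 2 of 27). With the replicate block, 3 members were higher with quercetin than on the control diet, and the other counts stayed within 1.5 times.

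Signs were followed for the 26 named genes on the Western diet, and for quercetin against that diet in the 19 genes that had passed on it. Against the control diet they were followed in the genes that had passed there with quercetin. Among the values followed, signs changed only in values that had not passed. For quercetin against the Western diet these were Adam12 (-0.030 with a median shift), Adam11 (-0.012), Adam22 (0.0024) and Mmp9 (-0.042) with all probe sets of a gene averaged, and Adamts12 (0.00077 without the arrays high in cilia genes, 0.036 without those high in liver markers, -0.071 to 0.0022 with each array left out). For the Western diet they were Adam5 (0.16 with array weights, 0.085 without the arrays high in testis, smooth muscle or lymph node markers, -1.07 to 0.17 with each array left out) and Adamts4 (-0.041 without those high in cilia genes). The cause of these changes was not tested. Signals near the floor limit what can be said of the germ cell ADAMs, Mmp1a, Mmp1b, Mmp7 and Mmp10.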

Other observations

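Mmp7 was compared, after its values had been seen, with 10 genes of motile cilia (Foxj1, Dnah5, Dnah9, Rsph1, Rsph4a, Dnaic1, Ccdc39, Ccdc153, Tmem212 and Stoml3), chosen for this comparison after the genes closest to Mmp7 over the 27 arrays had been looked up. Ccdc153, Tmem212 and Rsph4a are among the 10 closest (r = 0.92, 0.92 and 0.90), so the list follows Mmp7 in part by choice. The mean over these genes was highest on quercetin replicate 6 (6.59) and control replicates 9 and 1 (6.28 on each), where Mmp7 stood at 8.68, 8.47 and 8.36. On control replicate 6 the cilia genes had a mean of 5.35 and Mmp7 stood at 1.01. On control replicate 8 and Western replicate 5, where Mmp7 was at 7.08 and 6.70, their mean was 4.93 and 4.85, and on the arrays where Mmp7 was at 4.01 or less, leaving out control replicate 6, it was 3.86 or less.

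Mmp1a was at the floor of 0 on 2 control and 5 Western arrays and between 2.03 and 3.16 on all 9 quercetin arrays. Its difference between quercetin and the Western diet was 1.62 ± 0.48 (SE, limma adjusted p = 0.12, and 0.049 in a fit of 2 diets), the largest upward one of the 59 genes, at signals near the lowest on the array.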
